A study of Mus musculus with 48 samples.

Results

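The nuclear-encoded respiratory chain genes are the genes of the cell nucleus that encode subunits of complexes I, III, IV and V of the inner mitochondrial membrane. They were taken from the deposited count table by symbol, as all names beginning with Nduf plus a subunit letter and digit, Uqcr, Cox4 to Cox8 or Atp5, without pseudogene names. Of 80 matching symbols among 24060 gene rows, 75 had a mean of at least 1 CPM (counts scaled to library size) over all 48 libraries and are the members described here. They comprised 35 genes named for complex I, 8 for complex III, 15 for complex IV and 15 for complex V, and 2 genes (Atp5s and Atp5sl) that share the Atp5 name but are not subunits of the enzyme. Ndufa4, now counted as a complex IV subunit, is kept by its name among the 35, and among their accessory genes, in every count by complex. The 5 symbols under the limit were Cox7b2, Cox8b, Cox8c, Ndufa4l2 and Ndufs5, with means of 0.364, 0.195, 0, 0.869 and 0.287 CPM. The lowest member was Atp5g2, with a mean of 1.39 CPM. All 75 members passed the filter on low counts in every comparison, and they lie on 19 chromosomes.

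The libraries came from the striatum of adult C57 mice, 24 by the series description, in which an adeno-associated virus had delivered Rpl22 with a hemagglutinin tag to astrocytes 3 weeks earlier. From each replicate, RNA bound to the tagged ribosomes was immunoprecipitated (IP), and RNA of the cleared lysate (input) was sequenced beside it, so the input holds RNA of all striatal cells although it carries the astrocyte label too. There were 3 experiments of 16 libraries, with 4 replicates of every group in each fraction. In the first, mice given 4 doses of 20 mg/kg MPTP were compared with mice given vehicle. MPTP is a neurotoxin used to ablate dopamine neurons, and its oxidised metabolite inhibits complex I. Both agents are recorded as striatal microinjections, which a dose given by body weight leaves in doubt. In the second, SAPAP3 knockout mice, a model of compulsive behaviour, were compared with wild-type littermates. In the third, R6/2 mice with hM4Di, an engineered receptor that couples to Gi proteins, were compared with R6/2 mice with a control cargo. Both groups of the third experiment carry the R6/2 transgene, a fragment of mutant huntingtin used to model Huntington's disease, and whether hM4Di mice received an agonist is not given in the labels, whose shared protocol names CNO for another engineered receptor. The promoter that drives the tagged Rpl22 is not given in the sources used here.

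Complexes I, III and IV pass electrons from NADH to oxygen and pump protons, and complex V, the ATP synthase, uses the returning protons to make ATP. Complex I has core subunits that hold the flavin and the iron-sulfur clusters, and many accessory subunits around them. The subunits that carry the redox centres of complex IV, and several membrane subunits of complexes I, III and V, are encoded in mitochondrial DNA and are not analysed here. Some complex IV subunits exist in alternative isoforms that replace the general one in certain tissues or conditions. Astrocytes are known for strong glycolysis but also respire.

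Total counts were 34316800 to 61456600 in IP libraries and 21901800 to 38983900 in input libraries. All 12 astrocyte markers were more than 2-fold higher in IP than in input in each experiment, with median log2 fold changes of 2.44, 2.25 and 2.43 in the MPTP, SAPAP3 and R6/2 experiments. All 12 medium spiny neuron markers tested and all 7 microglia markers were lower in IP in each experiment, and none was at 0 in any group. Dlgap3, the gene that encodes SAPAP3, checks the genotypes and had 94.1, 76.1, 54.7 and 61.0 CPM in knockout IP libraries and 224, 166, 170.1 and 196 in wild-type IP libraries. In input it had 188, 174, 155 and 154 CPM in knockout libraries and 452, 361, 351 and 367 in wild-type libraries, so the groups did not overlap in either fraction. Reads remained in every knockout library, and where in the gene they fall is not given by a table of 1 count per gene. Interneuron markers were higher in IP in 6 of 7 in each experiment (medians 1.86, 1.14 and 2.18). Other lists were not lower in IP throughout. Oligodendrocyte markers had median sums of 9128 CPM in wild-type IP and 5819 in wild-type input, 6741 and 7427 in vehicle, and 3777 and 5143 in control cargo libraries. Pan-neuronal markers had 4177 CPM in vehicle IP and 4306 in vehicle input, 4296 and 5671 in wild-type, and 3974 and 3759 in control cargo libraries. The libraries come from a tissue, so fewer cells of a type and less RNA per cell cannot be told apart. The prefixes of the library titles differ by experiment.

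The members highest in IP over input were 3 alternative isoforms, Cox6b2, Cox4i2 and Cox7a1. For Cox6b2 and Cox7a1, the promoters are shown beside those of their general isoforms. Those of Cox4i2, Cox4i1 and Cox6a2 are not shown, so the CG counts below cover only the pairs printed. The windows are bases -250 to -41 relative to the start site in RefSeq's GRCm38.p6 annotation, printed 5′ to 3′ on the strand of the gene, with each CG dinucleotide in capitals. Cox6b2 lies at chr7:4753135-4753344 on the minus strand, Cox6b1 at chr7:30626155-30626364 on the minus strand, Cox7a1 at chr7:30183921-30184130 on the plus strand, and Cox7a2 at chr9:79759894-79760103 on the minus strand.
Cox6b2: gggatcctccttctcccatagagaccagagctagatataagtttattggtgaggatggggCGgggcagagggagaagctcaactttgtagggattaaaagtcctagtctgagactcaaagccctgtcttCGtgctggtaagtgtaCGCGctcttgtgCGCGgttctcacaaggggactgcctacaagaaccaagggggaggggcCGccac
Cox6b1: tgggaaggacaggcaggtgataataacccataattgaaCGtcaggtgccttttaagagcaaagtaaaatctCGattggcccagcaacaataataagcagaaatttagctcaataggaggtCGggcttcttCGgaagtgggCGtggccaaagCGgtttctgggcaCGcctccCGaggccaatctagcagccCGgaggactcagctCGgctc
Cox7a1: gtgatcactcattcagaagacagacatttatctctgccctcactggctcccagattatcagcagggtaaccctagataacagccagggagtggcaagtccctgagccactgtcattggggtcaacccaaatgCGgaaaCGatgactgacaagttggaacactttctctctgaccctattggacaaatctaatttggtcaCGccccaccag
Cox7a2: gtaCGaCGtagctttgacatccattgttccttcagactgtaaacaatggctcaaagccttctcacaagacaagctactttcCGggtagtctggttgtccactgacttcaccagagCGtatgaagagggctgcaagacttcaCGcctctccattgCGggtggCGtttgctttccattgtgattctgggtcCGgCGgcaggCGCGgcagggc
These windows held 7 CG in Cox6b2 and 10 in Cox6b1, and 3 in Cox7a1 and 11 in Cox7a2. Over all promoters of the table the median of the same stretch was 4.

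RefSeq promoters, which end 50 bases after the start site, matched 60 of the 75 members, 65 windows in all, against 32851 windows of 27025 genes in the whole table. From -250 to -41, members had a median of 10 CG and 53.8% G or C, against 4 CG and 51.9% in all genes. The motif of nuclear respiratory factor 1 (NRF-1), a factor known to act on respiratory chain genes, was present in 14 of 60 members (23.3%), against 5.19% of all genes. It was found in 6 of 31 complex I promoters, 1 of 5 of complex III, 1 of 11 of complex IV and 6 of 13 of complex V. Those genes were Ndufa5, Ndufa6, Ndufa8, Ndufa11, Ndufb4, Ndufs6, Uqcrc1, Cox6a1, Atp5c1, Atp5g2, Atp5g3, Atp5h, Atp5k and Atp5o. Cox6a1, the general isoform of a complex IV subunit, held a pair of matches, in capitals in its window at chr5:115348999-115349208 on the minus strand, the second on the opposite strand.
Cox6a1: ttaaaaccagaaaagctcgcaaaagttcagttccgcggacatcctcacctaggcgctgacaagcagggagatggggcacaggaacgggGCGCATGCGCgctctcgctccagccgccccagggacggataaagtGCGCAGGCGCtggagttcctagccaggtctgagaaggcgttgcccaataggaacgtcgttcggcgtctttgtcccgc
The YY1 motif AAGATGGC was present in 9 members (15%), 7 of complex I and 2 of complex V, against 3.19% of all genes. CCGGAAGT, a motif of GABPA and other ETS factors, was present in 5 members (8.33%), against 4.31%. All 3 motifs were searched on both strands, and the letters of none contain those of another. Ndufs6 held both the first and the second motif, and Atp5h both the first and the last. A match describes the letters only.

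Per length, in the FPKM (fragments scaled to transcript length and library size) of the deposited table, complex V and complex IV subunits were the most abundant members. The catalytic F1 subunit gene Atp5b ranked first in both fractions, with 889 FPKM on average over 24 IP libraries (range 675 to 1090) and 681 over 24 input libraries (range 537 to 788). Atp5a1, the other large F1 subunit, ranked second in IP with 582 FPKM and behind 3 members in input with 411. The complex IV genes Cox4i1, Cox8a and Cox6b1 followed in IP with 403, 352 and 296 FPKM, against 482, 494 and 341 in input. Ndufa4 had 252 FPKM in IP and 319 in input. At the other end stood the alternative isoforms Cox6a2, Cox4i2 and Cox7a1, with 3.46, 6.09 and 7.97 FPKM in IP and 4.68, 2.01 and 2.79 in input. Atp5g2 and Atp5l, a c-ring and a small membrane subunit of complex V, had 0.853 and 1.84 FPKM in IP and 3.44 and 5.55 in input. Each has annotated pseudogenes that are nearly identical to it, so its counts are uncertain. In all, 13 members have an annotated pseudogene at least 97% identical over 100 or more bases, among them Cox7c, Cox7a2l, Ndufs3, Uqcr11 and Uqcrb. Of the members, 14, among them Ndufs1, Ndufb9, Ndufa13, Uqcrc2, Cox4i1 and Atp5a1, share an identical stretch of at least 100 bases with a transcript of another gene. Whether the stretch lies on the same strand was not checked, so it is not known whether their counts are affected.

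Members took about 1 count in 100. Their share of all counts was 0.873% ± 0.0456 in MPTP IP libraries and 0.903% ± 0.0402 in vehicle IP libraries (SD, n = 4 each), and 0.978% ± 0.0496 in MPTP input and 0.943% ± 0.0124 in vehicle input. In the SAPAP3 experiment it was 0.841% ± 0.0579 in knockout IP and 0.873% ± 0.0293 in wild-type IP, and 0.759% ± 0.0464 in knockout input and 0.769% ± 0.0268 in wild-type input. In R6/2 mice it was 1.06% ± 0.0346 in hM4Di IP and 1.05% ± 0.0334 in control cargo IP, and 0.900% ± 0.0275 in hM4Di input and 0.886% ± 0.0207 in control cargo input. The ranges of perturbed and control groups overlapped in each of these 6 pairs. By group means of this share, IP exceeded input in the SAPAP3 and R6/2 experiments and was below it in the MPTP experiment. The ranges overlapped in vehicle libraries (0.860% to 0.956% in IP, 0.926% to 0.954% in input). They also overlapped in SAPAP3 knockout libraries (0.776% to 0.905% in IP, 0.698% to 0.806% in input). With TMM scaling, edgeR's correction for the makeup of each library, the order turned in the MPTP experiment. The members' summed level was then 9389 ± 501 CPM in MPTP IP and 8923 ± 374 in MPTP input, with overlap, and 9915 ± 415 in vehicle IP and 8745 ± 117 in vehicle input, without overlap (SD, n = 4 each). Atp5b and Atp5a1 were the largest terms of this sum. Their medians in the MPTP experiment were 1644 and 1435 CPM over 8 IP libraries and 1209 and 954 over 8 input libraries. The sum therefore does not give the direction of most members. Complex V held the largest part of the share in all 12 groups, in IP from 0.371% in SAPAP3 knockout to 0.495% in hM4Di libraries, and complex IV held less than complex I. Complex IV took a smaller share of IP than of input counts in every condition, without overlap. Its means were 0.127% in MPTP IP and 0.205% in MPTP input, 0.126% and 0.147% in wild-type libraries, and 0.135% and 0.159% in control cargo libraries. Complex III took 0.0929% of MPTP IP counts and 0.0927% of MPTP input counts.

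**Figure D1:**
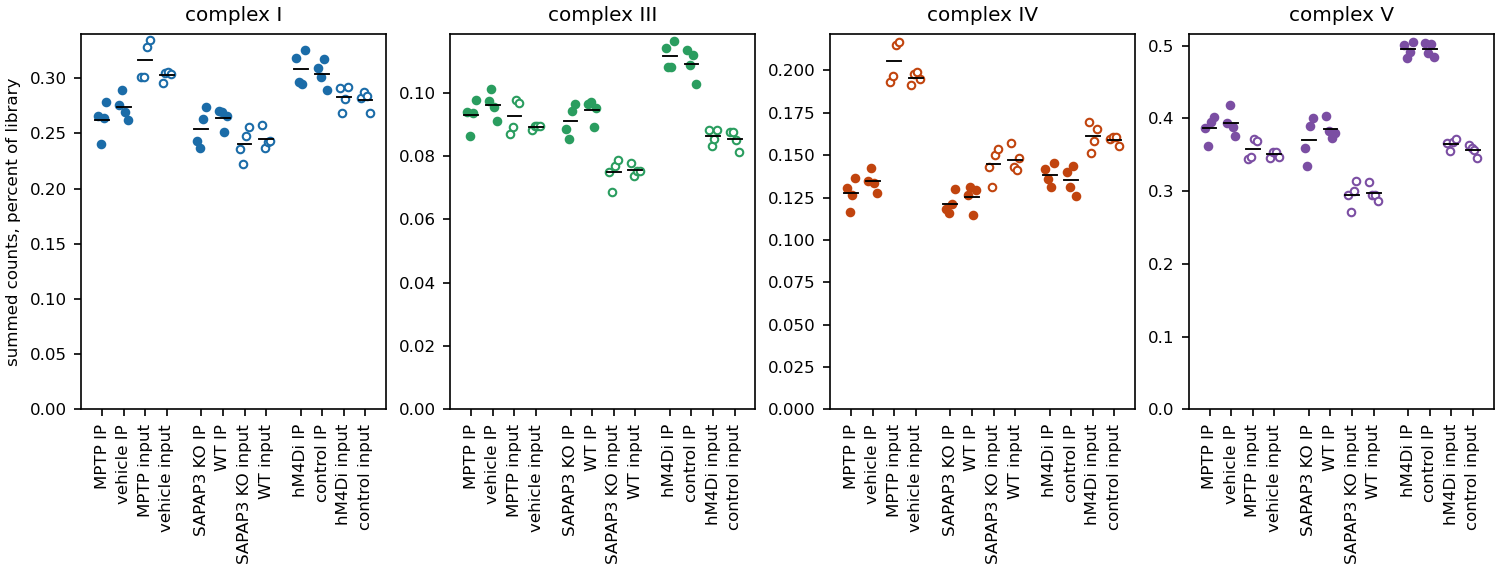
Share of all counts (percent) taken by the members of complexes I, III, IV and V in each of the 48 libraries, 1 point per library (filled IP, open input), with a bar at each group mean. Perturbed and control libraries overlap, and complex IV shares are lower in IP than in input in the MPTP experiment.

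Whether astrocyte ribosomes carry these transcripts to the same degree as the whole tissue was asked by comparing IP with input within each experiment. The members did not move as 1 block. Core subunits of complex III, most F1 subunits of complex V and 3 alternative complex IV isoforms were higher in IP in each experiment. Core subunits of complex I were higher in the SAPAP3 and R6/2 experiments and mixed in the MPTP experiment. The general subunits of complex IV were mostly lower in the MPTP experiment and mixed in the others. In the MPTP experiment, 23 of 75 members were higher in IP and 41 lower (edgeR's quasi-likelihood test, Benjamini-Hochberg adjusted p under 0.05), against 40.7% higher and 42.9% lower of all 15862 genes tested. In the SAPAP3 experiment, 47 were higher and 10 lower, against 40.3% and 40% of 16059 genes. In the R6/2 experiment, 48 were higher and 11 lower, against 39.3% and 41.1% of 15880 genes. The median log2 fold change of the members was -0.17, 0.20 and 0.17 in the 3 experiments, and the last 2 turned to -0.02 and -0.07 with library size alone. That of all genes was -0.02, -0.00 and -0.02.

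These counts depend on the scaling. With library size alone, 15 members were higher and 53 lower in the MPTP experiment, 26 and 25 in the SAPAP3 experiment, and 28 and 33 in the R6/2 experiment. With upper-quartile scaling they were 18 and 47, 32 and 20, and 34 and 20. Those scalings moved the median of all genes too, to -0.25, -0.22 and -0.26 with library size alone and to -0.16, -0.14 and -0.14 with the upper quartile. The fold changes below are therefore read relative to the bulk of the genes, and small ones, under about the size of these shifts, have no firm sign. Few members passed 2-fold: 3 higher in each experiment, against 12.5%, 11.9% and 11.3% of all genes, and 3, 2 and 2 lower, against 14%, 13% and 12.3%.

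The members highest in IP over input were alternative subunits of complex IV. Cox6b2, the testis-type isoform of a subunit that faces the intermembrane space (chr7:4751792-4753094, GENCODE M21 on GRCm38), was higher in IP in all experiments. In the MPTP experiment its lowest, median and highest values were 11.7, 13.4 and 15.9 CPM over 8 IP libraries, and 1.65, 2.48 and 3.06 CPM over 8 input libraries. They were 8.75, 12.2 and 13.9 CPM in IP and 1.09, 1.29 and 1.90 in input in the SAPAP3 experiment, and 11.5, 15.2 and 22.4 in IP and 1.80, 2.56 and 3.46 in input in the R6/2 experiment. Every IP library stood above every input library. The log2 fold changes were 2.47 ± 0.109, 3.09 ± 0.126 and 2.63 ± 0.151 (SE), with adjusted p of 1.61e-13, 5.25e-13 and 3.94e-11. Its general partner Cox6b1 (chr7:30616861-30626151) was lower in IP in the MPTP experiment, with 141, 164 and 172 CPM in IP and 173, 184 and 205 in input (log2 fold change -0.23 ± 0.0423, adjusted p = 6.83e-05). Cox6b1 was higher in IP in the SAPAP3 experiment (0.18 ± 0.0525, adjusted p = 0.00406) and the R6/2 experiment (0.15 ± 0.036, adjusted p = 9.03e-04), and both of these values were below 0 with library size alone. By FPKM, Cox6b2 made up a median of 6.47%, 6.06% and 6.75% of the pair in IP, against 1.05%, 0.782% and 1.32% in input.

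Cox4i2, an isoform known for its response to low oxygen and its expression in lung (chr2:152754173-152765037), was also higher in IP in all 3 experiments. Over the 8 libraries of a fraction its lowest, median and highest values were 4.45, 5.17 and 5.96 CPM in IP and 1.43, 1.60 and 2.01 in input in the MPTP experiment. The SAPAP3 experiment gave 4.31, 5.52 and 7.20 CPM in IP and 1.13, 1.38 and 1.63 in input, and the R6/2 experiment 2.62, 3.47 and 5.33 in IP and 0.590, 1.11 and 1.24 in input. The fractions did not overlap, and the log2 fold changes were 1.63 ± 0.0709, 2.01 ± 0.122 and 1.86 ± 0.172 (adjusted p = 1.28e-13, 8.61e-11 and 2.51e-08). Cox4i1, the general isoform, was at -0.29 ± 0.0461 in the MPTP experiment (adjusted p = 1.14e-05), at 0.08 ± 0.0384 in the SAPAP3 experiment (adjusted p = 0.0719) and at 0.17 ± 0.0376 in the R6/2 experiment (adjusted p = 5.31e-04). The sign of the SAPAP3 value turned with library size alone and with the upper quartile, and that of the R6/2 value with library size alone. Cox4i2 was a small part of the pair in both fractions, with medians of 1.56%, 1.92% and 0.984% in IP and 0.412%, 0.509% and 0.373% in input.

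Cox7a1, the heart and muscle isoform (chr7:30184144-30186078), had 2.24, 3.01 and 5.12 CPM in IP and 0.884, 1.19 and 1.58 in input in the MPTP experiment. It had 2.43, 3.10 and 4.73 CPM in IP and 0.557, 0.667 and 1.02 in input in the SAPAP3 experiment, and 2.36, 3.05 and 3.31 in IP and 0.493, 0.824 and 1.46 in input in the R6/2 experiment. The fractions did not overlap, with log2 fold changes of 1.42 ± 0.163, 2.19 ± 0.18 and 1.67 ± 0.18 (adjusted p = 1.76e-07, 4.58e-09 and 1.80e-07). It made up a median of 6.73%, 6.88% and 6.43% of the pair with Cox7a2 in IP and 2.12%, 1.62% and 1.92% in input. The other heart and muscle isoform, Cox6a2, did not share this pattern. Its log2 fold changes were -0.24 ± 0.0876 in the MPTP experiment (adjusted p = 0.0162), -0.59 ± 0.109 (8.06e-05) with SAPAP3 mice and 0.49 ± 0.131 (0.00273) with R6/2 mice. Its fractions overlapped in each experiment, for example 2.59, 2.93 and 3.50 CPM in IP and 2.94, 3.53 and 3.99 in input in the MPTP experiment. Markers of ependymal cells, which the tagged fraction could also hold, were higher in IP too, 4 of 4 in each experiment, with medians of 1.45, 2.37 and 1.98. Interneuron markers had higher median sums in IP in every condition, for example 1365 CPM in vehicle IP and 309 in vehicle input. Endothelial and mural markers had lower ones, for example 93.5 and 232 CPM. The part of these cells in the isoform values was not tested.

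**Figure D2:**
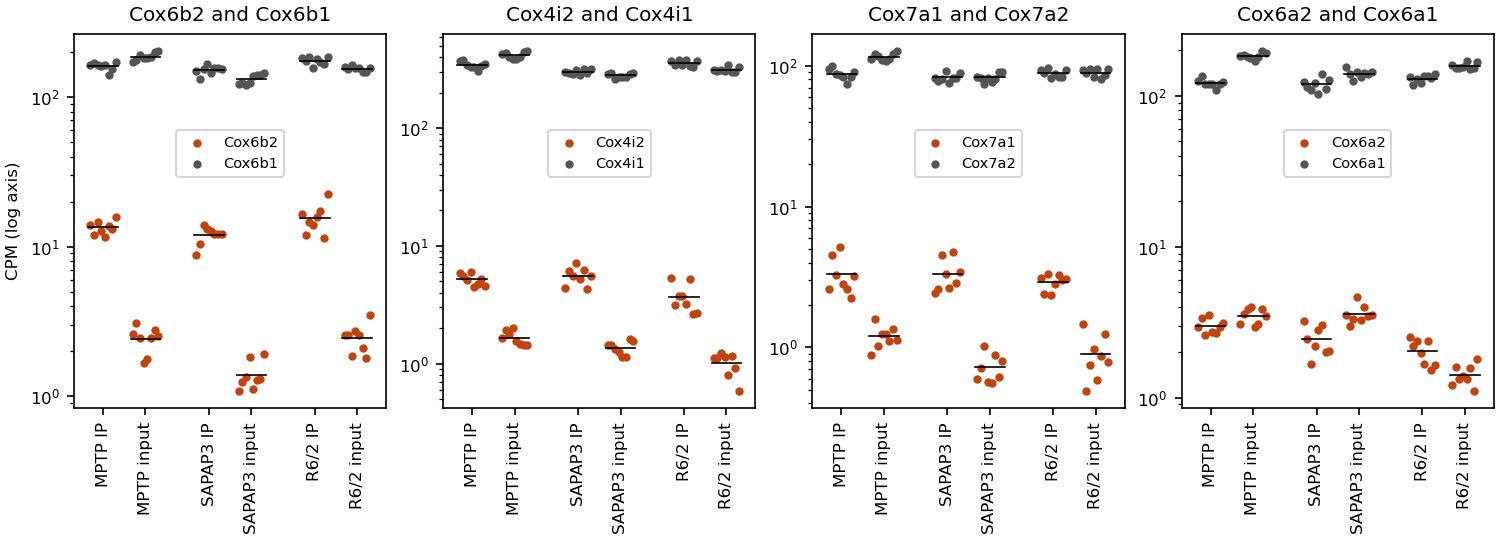
CPM on a log axis of 4 alternative complex IV isoforms and their general partners in the IP and input libraries of the 3 experiments, 1 point per library and a bar at the mean. Cox6b2, Cox4i2 and Cox7a1 stand apart between IP and input, and Cox6a2 overlaps.

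In complex I, core and accessory genes were counted apart, and the difference between these classes was not tested. Of 7 core subunit genes, 3 were higher and 1 lower in the MPTP experiment, and 7 of 7 were higher in the SAPAP3 and R6/2 experiments, with medians of 0.09, 0.44 and 0.38. Of 28 accessory genes, 5 were higher and 18 lower, 18 higher and 1 lower, and 16 higher and 3 lower, with medians of -0.19, 0.19 and 0.13. Ndufs1, the large iron-sulfur subunit (chr1:63143596-63176833), had a lowest, median and highest value of 271, 295 and 303 CPM in IP and 183, 189.6 and 193 in input in the MPTP experiment. It had 238, 255 and 284 CPM in IP and 149, 158 and 166 in input in the SAPAP3 experiment, and 314, 345 and 367 in IP and 177, 186 and 188 in input in the R6/2 experiment. No IP library fell among the input libraries, and the log2 fold changes were 0.61 ± 0.0274, 0.69 ± 0.0426 and 0.86 ± 0.0302 (adjusted p = 2.19e-13, 9.13e-11 and 5.27e-14). Ndufv1, which binds NADH and the flavin, followed with 0.47, 0.65 and 0.74. Ndufa1, a small accessory membrane subunit, was lower in IP in all experiments, at -0.79 ± 0.0435, -0.33 ± 0.0524 and -0.26 ± 0.053 (adjusted p = 4.00e-12, 1.63e-05 and 2.68e-04). Its values were 27.6, 32.8 and 34.6 CPM in IP and 52.1, 54.8 and 58.7 in input in the MPTP experiment. In the R6/2 experiment its fractions overlapped.

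In complex III, the core proteins Uqcrc1 and Uqcrc2 and the Rieske iron-sulfur protein Uqcrfs1 were higher in IP in all 3 experiments, with medians of 0.60, 0.75 and 0.83. Uqcrc1 had a lowest, median and highest value of 263, 294 and 322 CPM in IP and 177, 186 and 199 in input in the MPTP experiment. It had 272, 301 and 312 CPM in IP and 165, 176 and 181 in input in the SAPAP3 experiment, and 332, 338 and 365 in IP and 172, 182 and 193 in input in the R6/2 experiment. No values overlapped, and the log2 fold changes were 0.64 ± 0.0351, 0.75 ± 0.0374 and 0.88 ± 0.0301 (adjusted p = 4.07e-12, 6.11e-12 and 4.18e-14). The 5 small subunits differed less, with 0 higher and 3 lower in the MPTP experiment and 4 higher in each of the others, and medians of -0.20, 0.18 and 0.15. Uqcrh, the hinge protein, was at -0.23, 0.11 and 0.16, and Uqcrb at -0.09, 0.10 and 0.07, of which none of the 3 Uqcrb values passed the test.

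The 10 general subunits of complex IV were mostly lower in IP in the MPTP experiment and mixed in the others, with 1 higher and 9 lower in the MPTP experiment, 2 and 4 in the SAPAP3 experiment and 4 and 3 in the R6/2 experiment, and medians of -0.44, -0.05 and -0.05. Cox6a1 was lower in IP in each, at -0.61, -0.25 and -0.30, as was Cox7c, at -0.78, -0.30 and -0.46. Cox7a2l, a factor that helps complexes III and IV assemble into supercomplexes, was lower in IP, with every IP library below every input library. It had a lowest, median and highest value of 60.6, 64.7 and 71.2 CPM in IP and 123, 134 and 141 in input in the MPTP experiment. It had 51.0, 52.9 and 60.7 CPM in IP and 75.7, 88.1 and 97.7 in input in the SAPAP3 experiment, and 52.4, 58.3 and 68.7 in IP and 78.1, 85.9 and 105 in input in the R6/2 experiment. The log2 fold changes were -1.04 ± 0.0405, -0.70 ± 0.0525 and -0.61 ± 0.0597 (adjusted p = 2.69e-14, 1.42e-09 and 5.51e-08). Cox7a2l and Cox7c each have a nearly identical pseudogene, and the split of reads between them is not known.

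In complex V, most genes of the F1 head were higher in IP. Of its 5 genes, 4 were higher and 1 lower in the MPTP experiment, and 4 were higher and 0 lower in both others, with medians of 0.24, 0.52 and 0.52. Atp5b had a lowest, median and highest value of 1490.0, 1644 and 1792 CPM in IP and 1159, 1209 and 1235 in input in the MPTP experiment, 1413, 1619 and 1719 in IP and 933, 1034 and 1107 in input in the SAPAP3 experiment, and 2153, 2219 and 2253 in IP and 1237, 1293 and 1342 in input in the R6/2 experiment. The fractions never overlapped, and the log2 fold changes were 0.43 ± 0.0346, 0.63 ± 0.0501 and 0.75 ± 0.0253 (adjusted p = 1.04e-09, 3.01e-09 and 3.22e-14). Atp5a1 had log2 fold changes of 0.58, 0.69 and 0.90. The peripheral stalk was mixed, with 2 higher and 1 lower of 4, then 3 higher and 0 lower, then 3 higher and 1 lower, the lower one being Atp5j with -0.34 in the MPTP and -0.25 in the R6/2 experiment. The 3 genes of the c ring encode the same mature protein and split, with Atp5g3 higher (0.33, 0.57 and 0.61) and Atp5g2 lower (-2.11, -1.61 and -1.71). Atp5g1 had medians of 27.1, 26.3 and 43.3 CPM in IP and 35.4, 27.4 and 45.1 in input, with overlap in each experiment. Atp5g1 and Atp5g2 have nearly identical pseudogenes, so their counts are uncertain. Atp5g2 had 0.239, 0.398 and 0.532 CPM in IP and 1.30, 1.65 and 2.01 in input in the MPTP experiment, with no overlap. The small membrane subunits Atp5j2, Atp5k and Atp5l had every IP library below every input library in the MPTP experiment. Of these, only Atp5l stayed without overlap in the SAPAP3 and R6/2 experiments. Its medians there were 0.970 and 1.18 CPM in IP and 2.36 and 2.88 in input. Outside the complexes, Atp5s was at 0.28, 0.35 and 0.33, and Atp5sl at -0.37, -0.16 and -0.30.

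**Figure D3:**
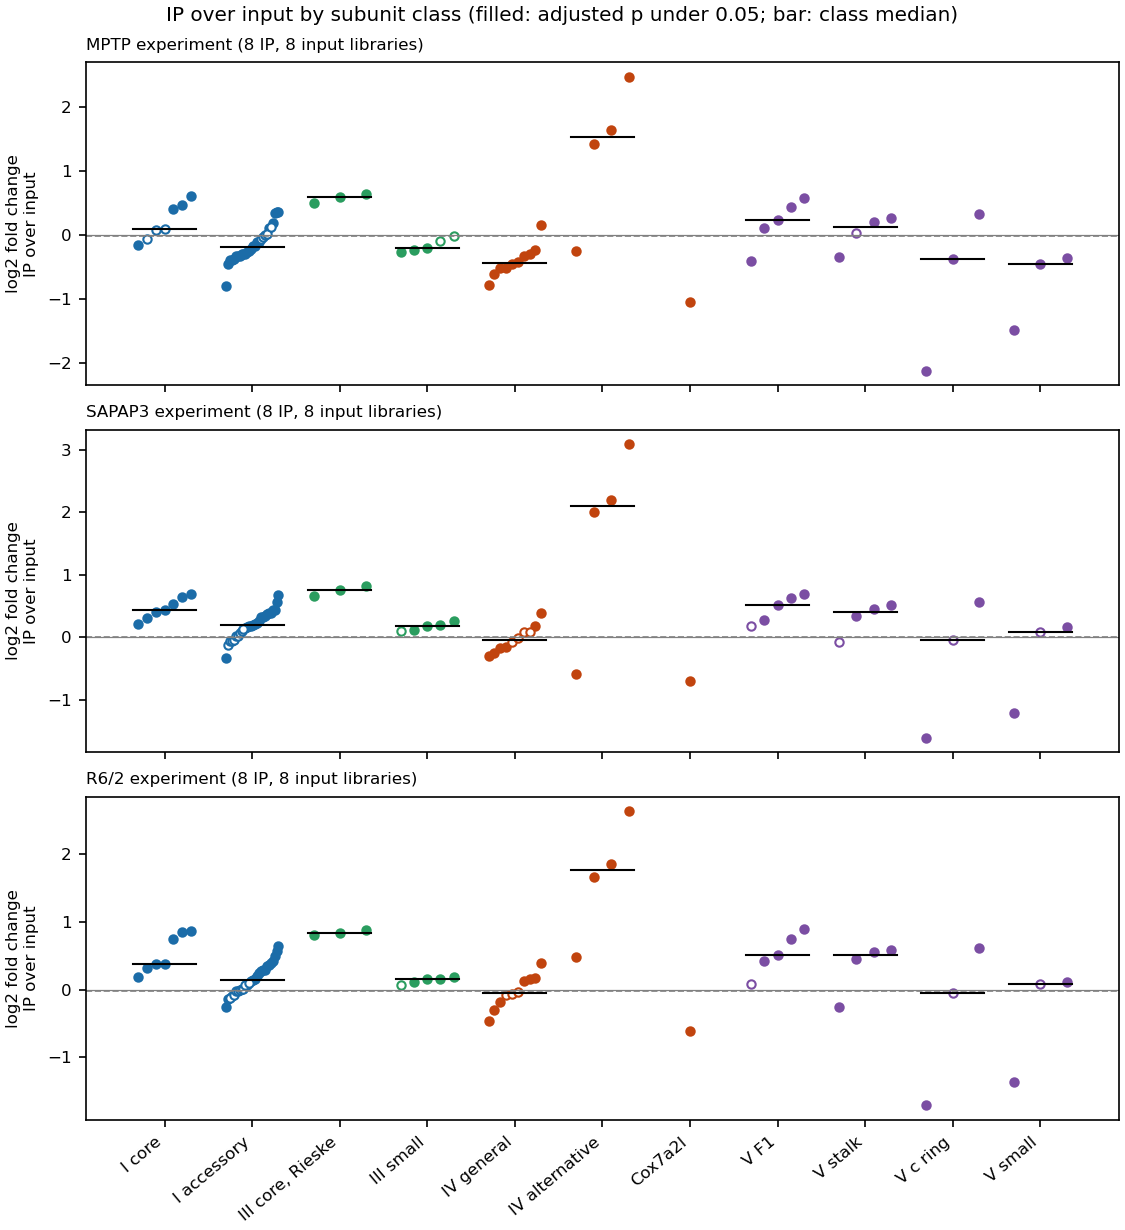
Log2 fold change of IP over input for each member that is a subunit or Cox7a2l, grouped by class, in the 3 experiments, with 1 point per gene, filled where the adjusted p is under 0.05, and a bar at the class median. The core classes of complexes I and III and the F1 head have medians above 0 in each experiment, and 3 alternative complex IV isoforms lie highest.

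Transcript length went with these differences. Over the 75 members, the Spearman correlation of the log2 fold change with the length used for FPKM was 0.52, 0.45 and 0.47 in the 3 experiments, a description across genes that share the same libraries, against 0.18, 0.02 and 0.07 over all genes. The 23 members of at least 1000 bases had medians of 0.27, 0.40 and 0.52 and the 52 shorter ones -0.26, 0.15 and 0.11. Among all genes, those under 1000 bases had medians of -0.45, -0.18 and -0.38 and the longer ones 0.01, 0.01 and 0.00. Lengths differ between the classes, and the part of length in the class differences was not tested.

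**Figure D4:**
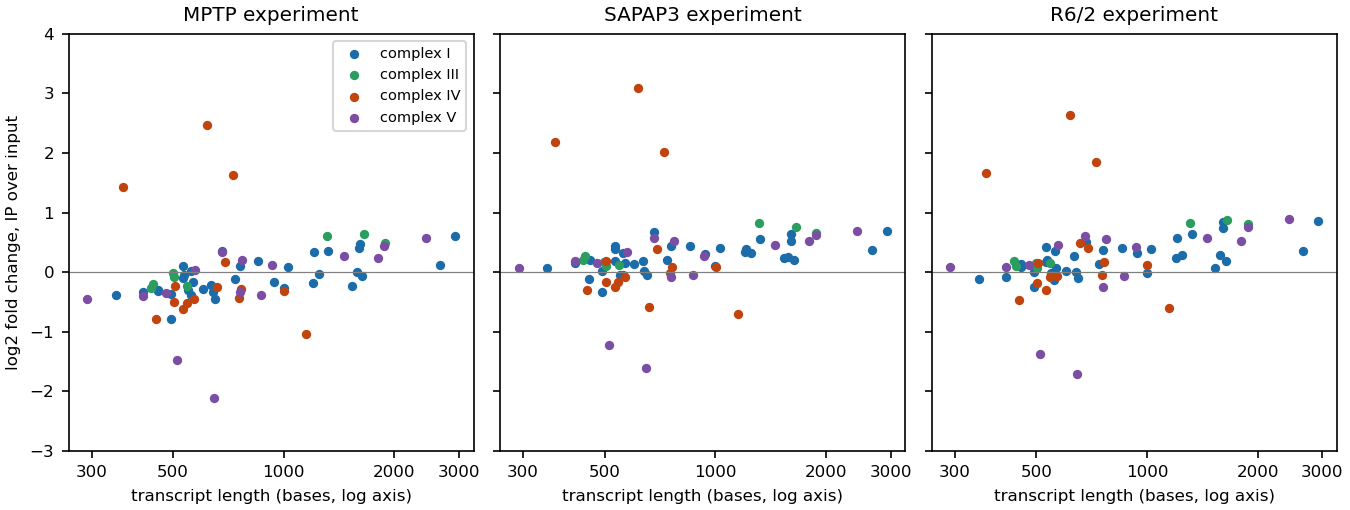
Log2 fold change of IP over input against transcript length in bases (log axis) for the members of complexes I, III, IV and V in the 3 experiments, coloured by complex. Over all 75 members, those under 1000 bases have medians of -0.26, 0.15 and 0.11 and longer ones 0.27, 0.40 and 0.52.

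Other genes of mitochondrial energy supply gave a setting for these values. All 4 genes of complex II (succinate dehydrogenase) were higher in IP in each experiment, with medians of 0.53, 0.70 and 0.69. All 14 genes of the tricarboxylic acid cycle list were higher, with medians of 0.53, 0.62 and 0.72. Of 5 genes for electron carriers and cytochrome c1, 4 were higher in each experiment, 3 of them past 2-fold, with medians of 1.07, 1.31 and 1.31. Glycolysis genes were higher in 14, 13 and 15 of 16, with medians of 0.43, 0.47 and 0.68. Complex IV assembly factors were mostly lower in the MPTP and R6/2 experiments and mixed in the SAPAP3 experiment. They gave 5 higher and 13 lower, 8 and 7, and 6 and 12 of 20, with medians of -0.35, -0.01 and -0.20. Complex I assembly factors split, with 2 higher and 6 lower, 8 and 2, and 5 and 4 of 14. Summed levels of the assembly factors of complexes III and V had lower medians in IP than in input in every group. For complex III they were 219 and 258 CPM in vehicle, 219 and 226 in wild-type and 201 and 212 in control cargo libraries. For complex V they were 137 and 187, 127 and 150, and 137 and 148 CPM. These sums were not tested, and ranges overlapped in some conditions. For complex III, wild-type libraries had 212 to 220 CPM in IP and 218 to 241 in input. For complex V, hM4Di libraries had 128 to 145 CPM in IP and 136 to 147 in input. Regulators of mitochondrial biogenesis gave 4 higher and 5 lower, 5 and 4, and 5 and 4 of 13, and outer membrane and import genes 3 and 5, 5 and 2, and 6 and 4 of 10.

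The ratio of IP to input was lower in the MPTP experiment than in the others for most members. This comparison was added after the values were seen, in 1 fit of all 48 libraries, and the experiment cannot be told apart from its batch of libraries. The MPTP experiment was lower than the SAPAP3 experiment for 57 members and higher for 1 (Cox6a2), against 15.2% lower and 18.8% higher of 16607 genes, with a median difference in log2 of -0.28 for the members and -0.02 for all genes. It was lower than the R6/2 experiment for 58 members and higher for 0, against 11.5% and 20.4%, with medians of -0.26 and 0.03. Complex I gave 30 and 29 of the lower members, complex III 4 and 6, complex IV 13 and 11, and complex V 10 and 12. Ndufs4, an accessory complex I subunit, had the smallest p against the SAPAP3 experiment, with -0.42 ± 0.0548 (adjusted p = 1.27e-07), and Ndufb10 against the R6/2 experiment, with -0.44 ± 0.0599 (adjusted p = 3.16e-07). At an unadjusted p under 0.05 and with DESeq2 no member was higher against the R6/2 experiment either. The call of Cox6a2 (0.40 ± 0.146, adjusted p = 0.0284) was lost, leaving 0 higher members, without vehicle replicate 2, wild-type replicate 2, or SAPAP3 knockout replicate 2, 3 or 4.

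The R6/2 and SAPAP3 experiments differed for fewer members, with 8 higher and 4 lower in R6/2, against 10.6% and 14.6% of all genes, and 7 lower with the animal as a block. The higher ones included Cox6a2 (1.08 ± 0.154), Atp5a1 (0.20), Ndufa10 (0.19), Ndufs1 (0.17), Uqcrc2 (0.16), Atp5d (0.15) and Uqcrc1 (0.13). The lower ones were Ndufc1 (-0.23), Ndufc2 (-0.18), Atp5j (-0.17) and Ndufs4 (-0.15), and leaving out single replicates left 0 to 5 lower. Only 1 or 2 lower members remained without wild-type replicate 4, SAPAP3 knockout replicate 2 or 3, control cargo replicate 1 or 2, or hM4Di replicate 1, 2 or 3, and 0 without wild-type replicate 2. Length moved with the differences between experiments. All genes under 1000 bases had medians of -0.27, -0.17 and -0.10 for MPTP against SAPAP3, MPTP against R6/2 and R6/2 against SAPAP3, and longer ones -0.00, 0.05 and -0.03. Members of at least 1000 bases had medians of -0.16, -0.24 and 0.04 and shorter members -0.30, -0.27 and -0.03. Cell type markers moved as well. Oligodendrocyte markers were lower in the MPTP than in the SAPAP3 experiment in 7 of 8 (median -0.55). In the MPTP experiment they were called higher than in the R6/2 experiment in 2 of 8 (median of all 8 0.27). Pan-neuronal markers were higher than in the SAPAP3 experiment in 6 of 8 (0.42), and the part of length and cell makeup was not tested.

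Whether MPTP, whose metabolite acts on complex I, changed these transcripts was asked in IP and in input. In IP, 73 of 75 members had a log2 fold change below 0, including all 35 of complex I, but the shifts were small and none passed the test. Called members numbered 0 of 75 in edgeR's quasi-likelihood test, as did called genes among 15069 (0%), and limma-voom gave 0 members as well. At an unadjusted p under 0.05, 11 members were lower and 0 higher, against 7.33% and 3.9% of all genes. The median was -0.08 for the members, with -0.08, -0.09, -0.10 and -0.07 for complexes I, III, IV and V, and 0.01 for all genes, of which 51.9% were above 0. DESeq2 and a fit of all 16 libraries called 302 and 289 genes, and of the members Ndufc1 in both. Without MPTP replicate 2, whose IP and input titles name different animals, 61 members were below 0 and the median was -0.041.

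Ndufc1, an accessory subunit of the membrane arm of complex I (chr3:51404677-51408988), had 20.2, 18.4, 22.2 and 22.7 CPM in MPTP IP libraries and 25, 27.2, 25.7 and 25.5 CPM in vehicle IP libraries. The groups did not overlap, and its log2 fold change was -0.29 ± 0.0691 (adjusted p = 0.156). In input its values were 27.3, 26.1, 31.3 and 31.3 CPM with MPTP and 29.5, 30.0, 28.1 and 28.0 with vehicle, and there the groups overlapped. Ndufc2, also of the membrane arm, had 67.4, 63.5, 68.2 and 77.6 CPM in MPTP IP and 85.3, 83.6, 76.1 and 76.2 in vehicle IP, with overlap (-0.20, adjusted p = 0.296). Ndufa13, also known as GRIM-19, had 131, 119, 131 and 129.9 CPM in MPTP IP and 142, 145, 139 and 134 in vehicle IP, without overlap. Cox6c of complex IV also did not overlap, with 143, 130.5, 136 and 133 CPM in MPTP IP and 146, 148, 160.0 and 145 in vehicle IP (-0.13 ± 0.0528, adjusted p = 0.407). These 3 members were the ones with all MPTP libraries lower, against 5.51% of all genes, and 0 had all libraries higher, against 1.51%.

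In the other complexes, Uqcrfs1 had 111, 107, 117 and 122 CPM in MPTP IP and 128, 129, 123 and 121 in vehicle IP, with overlap (-0.12 ± 0.0488, adjusted p = 0.389). Cox4i2 had 4.45, 4.79, 5.22 and 4.60 CPM in MPTP IP and 5.83, 5.60, 5.12 and 5.96 in vehicle IP (-0.23 ± 0.0923, adjusted p = 0.407). Cox7a1 had 2.81, 2.60, 2.24 and 3.21 CPM in MPTP IP and 2.60, 4.52, 3.25 and 5.12 in vehicle IP (-0.50 ± 0.215, adjusted p = 0.423). Atp5e, the smallest F1 subunit, had 29.9, 26.3, 28.3 and 35.1 CPM in MPTP IP and 37.9, 38.4, 29.6 and 33.0 in vehicle IP (-0.20 ± 0.103, adjusted p = 0.511). In each of these 4 the MPTP libraries lay mostly lower, and the ranges overlapped. Marker lists moved beside the members. All 12 astrocyte markers were below 0 (median -0.22), with summed levels of 30827 to 33972 CPM in MPTP IP and 31747 to 41394 in vehicle IP. All 8 oligodendrocyte markers were above 0 (0.23; 7190 to 8817 CPM with MPTP, 5869 to 8793 with vehicle), and so were 11 of 12 medium spiny neuron markers (0.09; 4526 to 7603 CPM with MPTP, 5440 to 5966 with vehicle). All 4 oligodendrocyte precursor markers were below 0 (-0.34), with sums of 208 to 263 CPM with MPTP and 292 to 299 with vehicle. All 7 microglia markers were above 0 (0.26), with sums of 27.5 to 32.4 CPM with MPTP and 22.1 to 26.3 with vehicle, so these groups did not overlap. Interneuron markers were below 0 in 6 of 7 (-0.16; 1063 to 1209 CPM with MPTP, 1163 to 1457 with vehicle) and endothelial and mural markers in 7 of 9 (-0.25; 70.8 to 89.8 CPM with MPTP, 84.8 to 98.4 with vehicle). Pan-neuronal markers were above 0 in 7 of 8 (0.16) and ependymal markers in 4 of 4 (0.39). None of these markers was called or at 0, and their part in the members' shift was not tested. Electron carrier genes were below 0 in 5 of 5 (median -0.10), complex II genes in 3 of 4 (-0.08), tricarboxylic acid cycle genes in 10 of 14 (-0.05) and glycolysis genes in 9 of 16 (-0.01), with 0 called.

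In input, 62 of 75 members had a log2 fold change above 0, 33 of 35 in complex I, and a median of 0.04, against 53.8% above 0 and a median of 0.01 for all genes. Again 0 members and 0 of 15601 genes (0%) were called by edgeR's quasi-likelihood test, and DESeq2 and limma-voom gave 0 members. At an unadjusted p under 0.05, 3 members were higher and 1 lower, against 3.22% and 5.04%. The count above 0 moved with single mice: without MPTP replicate 4, 27 members were below 0, and without MPTP replicate 1, 5 were. Ndufs3, a core subunit of complex I, had 49.0, 49.1, 52.3 and 51.3 CPM with MPTP and 46.0, 48.3, 48.2 and 46.8 with vehicle, the 1 member without overlap upwards, against 1.53% of genes (0.10 ± 0.0428, adjusted p = 0.576). Cox4i2 was the 1 member without overlap downwards, against 3.06%, with 1.55, 1.47, 1.43 and 1.43 CPM with MPTP and 1.66, 1.94, 1.80 and 2.01 with vehicle (-0.33 ± 0.144, adjusted p = 0.584). Uqcrq had 38.1, 41.0, 45.8 and 45.2 CPM with MPTP and 40.7, 36.9, 39.5 and 36.2 with vehicle (0.16 ± 0.0669, adjusted p = 0.573), and Atp5h 57.7, 58.9, 62.5 and 64.6 with MPTP and 54.0, 55.9, 59.8 and 57.8 with vehicle (0.11 ± 0.0518, adjusted p = 0.621). Both overlapped between groups. Markers moved in input too. All 9 endothelial and mural markers were below 0 (median -0.20), with sums of 187 to 209 CPM with MPTP and 227 to 239 with vehicle, so these groups did not overlap. Medium spiny neuron markers were below 0 in 11 of 12 (-0.08; 9427 to 9810 CPM with MPTP, 9772 to 10572 with vehicle), pan-neuronal markers in 7 of 8 (-0.07; 4017 to 4259 CPM with MPTP, 4228 to 4405 with vehicle) and astrocyte markers in 9 of 12 (-0.02), and ependymal markers were above 0 in 4 of 4 (0.27). None was called, and their part in the members' values was not tested.

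The difference between the effect in IP and that in input was below 0 for 71 of 75 members, all 35 of complex I among them, with a median of -0.13 against -0.01 for all genes, of which 47.6% were above 0. No member was called, with 0 of 15862 genes (0%) passing edgeR's quasi-likelihood test and 0 members with DESeq2 or limma-voom. At an unadjusted p under 0.05, 18 members were lower and 0 higher, against 5.48% and 2.5%. Ndufb9, an accessory complex I subunit, had 117, 99.6, 114 and 115 CPM in MPTP IP and 131, 129, 123 and 115 in vehicle IP, and 158, 157, 170.1 and 170.2 CPM in MPTP input and 147, 155, 159 and 155 in vehicle input. It lay lower with MPTP in IP and higher in input, with overlap in both, and the difference was -0.25 ± 0.0752 (adjusted p = 0.423). Ndufb2 had -0.30 ± 0.0892 (adjusted p = 0.423) and Uqcrq -0.37 ± 0.12 (adjusted p = 0.437).

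**Figure D5:**
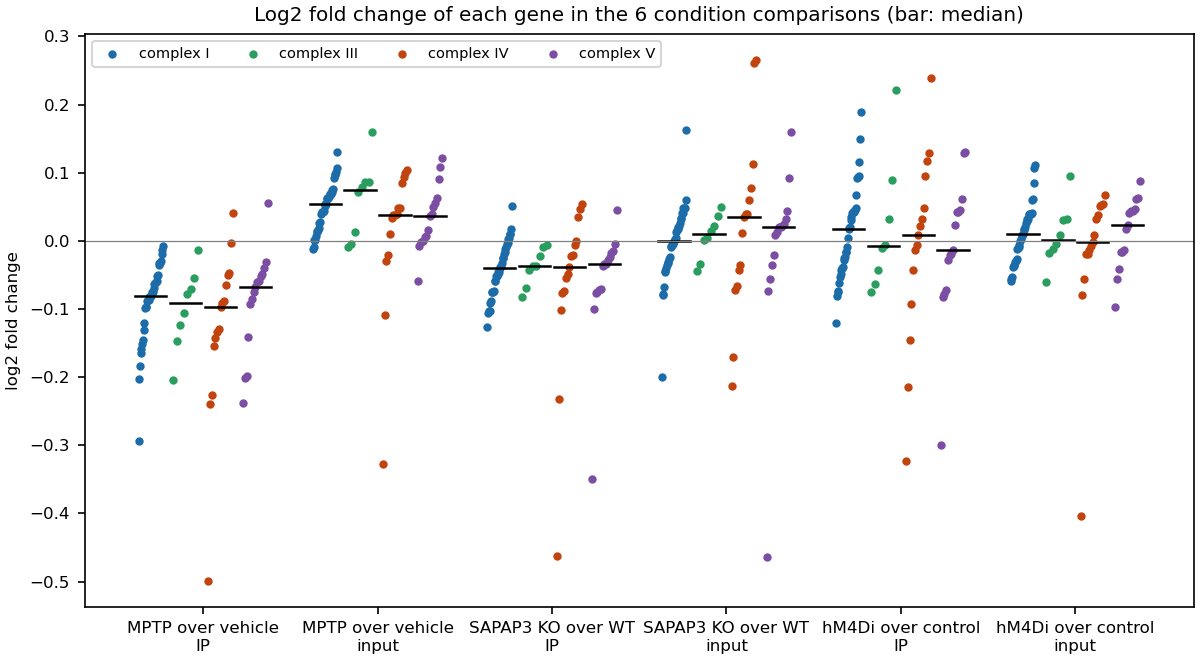
Log2 fold change of each member of complexes I, III, IV and V between perturbed and control mice in IP and in input for the 3 experiments, 1 point per gene, with a bar at the median of each complex. Over all 75 members, in the MPTP experiment 73 lie below 0 in IP and 62 above 0 in input. In SAPAP3 knockout IP 64 lie below 0, with a median of -0.04, and the other comparisons have medians of about 0.01.

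In the SAPAP3 experiment, astrocyte ribosome-bound RNA showed no member that passed the test. In knockout against wild-type IP, 64 of 75 members were below 0, with a median of -0.04 against 0.01 for all genes, of which 52.6% were above 0. No member was called in edgeR's quasi-likelihood test (0.0263% of 15198 genes were), nor with DESeq2 or limma-voom, and at an unadjusted p under 0.05 there were 0 higher and 1 lower, against 1.64% and 0.98%. That member was Cox6a2, with 2.46, 1.67, 2.00 and 2.04 CPM in knockout IP and 3.24, 2.19, 2.82 and 3.01 in wild-type IP, ranges that overlapped (-0.46 ± 0.175, adjusted p = 0.999). Cox7c was the 1 member with all knockout libraries lower, against 0.783% of genes, with 3.44, 3.51, 3.57 and 3.66 CPM in knockout and 4.41, 4.00, 4.21 and 4.04 in wild type (-0.23 ± 0.105), and 0 had all higher, against 0.744%. Ndufv3, an accessory subunit of the NADH-binding part of complex I, had 46.6, 41.5, 54.1 and 51.4 CPM in knockout and 53.1, 51.4, 52.3 and 54.9 in wild type (-0.13). Uqcrq had 37.8, 38.6, 37.6 and 38.1 CPM in knockout and 41.2, 41.9, 32.5 and 45.5 in wild type (-0.08). Atp5h, of the peripheral stalk, had 52.5, 54.7, 58.3 and 57.6 CPM in knockout and 58.1, 59.2, 57.6 and 60.4 in wild type (-0.07). In these 3 the ranges overlapped. Without SAPAP3 knockout replicate 1 the median was -0.01, and without replicate 4 it was -0.07.

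In input, 43 members were above 0 and 32 below, against 49.5% of all genes above 0, with a median of 0.01. No member was called (0.00641% of 15591 genes were) in edgeR's quasi-likelihood test or with DESeq2 or limma-voom, 0 had an unadjusted p under 0.05, against 2.82% higher and 2.75% lower of all genes, and 0 were without overlap, against 2.34% higher and 1.69% lower. Ndufs3 had 31.2, 28.5, 33.4 and 35.3 CPM in knockout input and 42.6, 36.6, 33.9 and 34.1 in wild-type input, with overlap (-0.20 ± 0.0937, adjusted p = 0.735). Cox4i2 had 1.43, 1.33, 1.63 and 1.57 CPM in knockout and 1.42, 1.27, 1.14 and 1.13 in wild type (0.27 ± 0.161, adjusted p = 0.735). The sign of the input median depended on single mice, at -0.03 without SAPAP3 knockout replicate 4 and 0.04 without replicate 2. The effect in IP and in input differed for 0 members and 0 of 16059 genes (0%) by edgeR's quasi-likelihood test, and for 0 members with DESeq2 and limma-voom. The smallest p values were those of Cox4i2 (-0.37 ± 0.235), Cox5a (-0.11) and Atp5o (-0.10). The difference was below 0 for 59 members, against 52.4% above 0 of all genes, and at an unadjusted p under 0.05 there were 0 members, against 0.953% higher and 0.311% lower. The median difference was -0.04, and 0.01 without wild-type replicate 2. Medium spiny neuron markers were below 0 in 12 of 12 in both fractions (-0.27 in IP, -0.29 in input), with sums of 5100 to 5520 CPM in knockout input and 5274 to 9213 in wild-type input. The highest of these was wild-type replicate 1, without which the members' medians were -0.03 in IP and 0.03 in input. Endothelial and mural markers were below 0 in 9 of 9 in input (-0.18), with sums of 151 to 178 CPM in knockout input and 184 to 218 in wild-type input. Microglia markers were above 0 in 7 of 7 in IP (0.57; 29.1 to 83.6 CPM in knockout, 26.1 to 46.1 in wild type) and below 0 in 7 of 7 in input (-0.19; 468 to 585 CPM in knockout, 408 to 739 in wild type). Astrocyte markers were above 0 in 11 of 12 in IP (0.14), and the part of the markers was not tested.

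In R6/2 mice, many ribosome-bound transcripts differed with hM4Di, and 1 of the 75 members was among those called. In IP, 2227 of 15159 genes were called (14.7%), 9.06% higher and 5.63% lower. The members had 39 log2 fold changes above 0 and 36 below, against 51.2% above 0 of all genes, with medians of 0.01 for the members and 0.01 for all genes. The called member was Ndufa6, an accessory subunit of the hydrophilic arm of complex I (chr15:82350140-82354322). It had 61.4, 55.6, 59.7 and 61.9 CPM in hM4Di IP libraries and 53.7, 52.1, 55.0 and 49.8 in control cargo IP libraries. Every hM4Di library was higher, and the gene rose by a log2 fold change of 0.19 ± 0.0511 (edgeR's quasi-likelihood test, adjusted p = 0.0402). In input it had 60.6, 57.8, 64.1 and 61.9 CPM with hM4Di and 61.1, 59.2, 60.2 and 60.5 with control cargo, where the groups overlapped. The call was lost with upper-quartile scaling, without the filter on low counts, with the replicate number as a block, and without any single library other than hM4Di replicate 2.

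Ndufs1 lay the other way in IP, with 332, 314, 326 and 339.5 CPM in hM4Di libraries and 365, 350.2, 367 and 351 in control cargo libraries, without overlap, and did not pass (-0.12 ± 0.038, adjusted p = 0.0636). Atp5a1 also did not overlap, with 1826, 1706, 1778 and 1793 CPM with hM4Di and 1923, 1863, 1853 and 1927 with control cargo (-0.08 ± 0.0374, adjusted p = 0.167). These were the 2 members with all hM4Di libraries lower, against 10.9% of genes, and Ndufa6 the 1 with all higher, against 12.2%. Uqcrb, a small complex III subunit, had 37.5, 38.9, 42.0 and 43.4 CPM with hM4Di and 38.2, 32.9, 35.6 and 33.0 with control cargo, with overlap (0.22 ± 0.0686, adjusted p = 0.0601). Cox6a1 had 134, 134, 131 and 139 CPM with hM4Di and 132, 117, 128 and 121 with control cargo (0.12 ± 0.0442, adjusted p = 0.106). At an unadjusted p under 0.05, 5 members were higher and 1 lower, against 17.2% and 14.2% of all genes. DESeq2 and the fit of all 16 libraries each called 4 members, Ndufa6 and Uqcrb higher and Ndufs1 and Atp5a1 lower, and limma-voom called 1.

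Cell type markers shifted in the same libraries. All 8 oligodendrocyte markers rose in hM4Di IP (median 0.81), with sums of 5452 to 7910 CPM with hM4Di and 3096 to 4261 with control cargo. Medium spiny neuron markers fell in 9 of 12 (-0.49, with sums of 2092 to 2209 CPM with hM4Di and 2484 to 3768 with control cargo). Pan-neuronal markers were called lower in 2 of 8 (median of all 8 -0.23) and astrocyte markers in 4 of 12 (median of all 12 -0.17). Summed astrocyte markers did not overlap, with 22913 to 24992 CPM with hM4Di and 28687 to 32219 with control cargo. In input no marker of these lists was called, and microglia markers were above 0 in 6 of 7 (0.29), with sums of 319 to 403 CPM with hM4Di and 277 to 318.6 with control cargo. Endothelial and mural markers were above 0 in 8 of 9 in input (0.12), with sums of 211.4 to 223 CPM with hM4Di and 189 to 211.3 with control cargo. No marker was at 0, and their part in the members' values was not tested. Of the other energy genes, 1 of 14 in the tricarboxylic acid cycle was called higher, and in glycolysis 1 of 16 was called higher and 1 lower (median -0.09). Complex II, the electron carriers, both assembly lists for complexes I and IV, the biogenesis regulators and the outer membrane and import genes had 0 called.

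In input, 42 members were above 0, against 49.6% of all genes, the median was 0.01, and 0 were called by edgeR's quasi-likelihood test (0.0198% of 15168 genes were), DESeq2 or limma-voom, with 0 at an unadjusted p under 0.05, against 4.98% higher and 2.69% lower. Atp5b had 1312, 1292, 1327 and 1342 CPM in hM4Di input and 1295, 1251, 1269 and 1237 in control cargo input (0.06 ± 0.03, adjusted p = 0.678). Cox4i2 had 0.799, 1.16, 0.917 and 0.590 CPM with hM4Di and 1.11, 1.11, 1.24 and 1.14 with control cargo (-0.40 ± 0.223, adjusted p = 0.729). Both overlapped, and 0 members were without overlap, against 2.69% higher and 1.77% lower.

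The effect of hM4Di differed between IP and input for 0 members without the animal as a block, against 3.1% of 15880 genes, with 3 higher and 3 lower at an unadjusted p under 0.05, against 8.63% and 9.21%. limma-voom called 0 members and DESeq2 4, and 37 members were below 0, against 48.6% above 0 of all genes. Ndufs1 came closest, with -0.16 ± 0.0435 (adjusted p = 0.0535). In input it had 188, 186, 189 and 186 CPM with hM4Di and 185, 181, 188 and 177 with control cargo, so the lower hM4Di values stood in IP and not in input. IP and input libraries of 1 mouse deviated together, and with the animal as a block 5 members passed, against 17.4% of all genes. These were Ndufs1 (-0.16, adjusted p = 0.0094) and Uqcr11 (-0.19, adjusted p = 0.0297), lower, and Uqcrb (0.22, adjusted p = 0.0274), Ndufv2 (0.14, adjusted p = 0.0185) and Ndufa6 (0.16, adjusted p = 0.0462), higher, in the IP effect relative to the input effect. Uqcr11, a small subunit of complex III, had 78.9, 70.9, 65.4 and 80.0 CPM in hM4Di IP and 83.7, 75.3, 82.2 and 71.5 in control cargo IP, and 70.7, 66.8, 66.4 and 68.6 in hM4Di input and 68.6, 63.8, 66.8 and 55.8 in control cargo input. Its groups overlapped in both fractions, and its mean was lower with hM4Di in IP and higher in input.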

How the data were processed

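RNA of tagged astrocyte ribosomes (IP) and of lysate (input) was sequenced in 48 libraries as stranded, ribosomal RNA-depleted RNA, per the labels' protocols. The deposited read counts per gene, and the FPKM the authors deposited beside them, were made with STAR, HTSeq and mm10, per the submitters' processing notes; versions and annotation are not given in the sources used here. Members and lists were chosen with earlier results of these data known.

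Counts were tested with edgeR 4.0.16 (R 4.3.3), using the trimmed mean of M values (TMM) and quasi-likelihood tests with Benjamini-Hochberg adjustment over all genes tested, at an adjusted p under 0.05, after edgeR's filter for a minimum count of 10. Condition comparisons used 8 libraries, and IP against input and the difference of effects 16. Alternatives were DESeq2 1.42.0, limma-voom 3.58.1, other scalings, no filter, blocks and leaving out each replicate. Scripts were tested on simulated data. CPM per library uses TMM over the 16 libraries of an experiment, and shares of counts use library totals. FPKM served to compare levels between genes and gave the lengths. Log2 values per animal used a pseudocount of 0.5 CPM. Near-identical transcripts were found with BLAST 2.17.0 in GENCODE M21 (GRCm38).

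Every member could be named. Members were chosen for description as the one of each complex with the smallest p in each condition comparison, and called members. The 2 highest and 2 lowest of each complex between fractions were added, as were the 3 with the smallest p in each difference of effects. Isoform pairs and core subunits could be described too. Values were given per library, as ranges or medians over libraries, or only as log2 fold changes. The labels do not say how replicates were obtained beyond animal names, so p-values measure the spread between these libraries. IP and input libraries of the same mouse deviated together from their group means, with correlations over genes of 0.164 to 0.737, so the animal pairs them by the titles, except for MPTP replicate 2, whose titles name different animals. A compound animal number titles both wild-type replicate 3 libraries. Whether it stands for 1 mouse or 2 pooled is not given, and it was treated as 1 animal. Replicates had pairwise differences above sampling noise, with a chi-square per degree of freedom of 3.99 to 91.4 over 72 pairs, so none was merged. Results of 1 member are not reported here.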

Additional observations from a re-analysis of the deposited data

Results flagged for a closer look

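Among 360 groups of 4 libraries, 18 held 1 value far from the other 3 by Dixon's test. Chance alone gives about 1 in 20, which is as many as were flagged, so the values below are listed without further reading. In complex I, Ndufc1 was 23.7 CPM in control cargo IP replicate 4, with 26.0 to 26.5 in the others. Ndufa13 was 119 CPM in MPTP IP replicate 2 (others 129.9 to 131) and 117 in hM4Di input replicate 1 (others 110.1 to 111). Ndufb9 was 99.6 CPM in MPTP IP replicate 2 (others 114 to 117) and 115 in wild-type input replicate 2 (others 118 to 119). In complex III, Uqcrfs1 was 165 CPM in control cargo IP replicate 4 (others 173 to 174) and Uqcrb 44.7 in vehicle IP replicate 1 (others at about 46.6).

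In complex IV, Cox6c was 146 CPM in control cargo input replicate 1 (others 137 to 138). Cox7c was 2.80 CPM in hM4Di IP replicate 3 (others 4.24 to 4.37) and 6.10 in vehicle input replicate 3 (others 6.94 to 7.10). Cox4i1 was 292 CPM in wild-type input replicate 1 (others 273 to 275), the library in which the members together took 0.809% of counts (others 0.752% to 0.758%). Cox6a2 was 2.36 CPM in hM4Di IP replicate 2 (others 1.53 to 1.67), Cox6b2 1.90 in knockout input replicate 4 (others up to 1.33), Cox6b1 132 in knockout IP replicate 1 (others 153 to 156), Cox7a1 0.888 in wild-type input replicate 4 (others 0.557 to 0.600) and Cox5b 79.1 in wild-type input replicate 2 (others 84.8 to 85.7). Atp5s and Atp5sl together took 0.00418% of counts in vehicle IP replicate 2 (others 0.00367% to 0.00373%).

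The ratio of IP to input differed between the MPTP and R6/2 experiments for 58 members, between the MPTP and SAPAP3 experiments for 58, and between the R6/2 and SAPAP3 experiments for 12, by edgeR's test of the difference itself.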

How the results depend on the processing

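Scaling moved the counts between fractions most. In the MPTP experiment the members' median IP over input was -0.31 with the upper quartile and -0.40 with library size alone, which left 15 higher. In the SAPAP3 experiment, the upper quartile gave 20 lower and a median of 0.0571, and library size alone 26 higher, 25 lower and -0.0169. In the R6/2 experiment, the upper quartile gave 20 lower and 0.0505, and library size alone 28 higher, 33 lower and -0.0697. The sign turned for Cox4i1 in the SAPAP3 experiment (-0.0666 with the upper quartile, -0.14 with library size alone) and, with library size alone, for Cox6b1 there (-0.0358) and for Cox4i1 (-0.0697) and Cox6b1 (-0.0859) in the R6/2 experiment. Cox7a2 in the SAPAP3 experiment was at 0.0016 without the filter.

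In MPTP against vehicle IP, DESeq2 and the fit of all 16 libraries each called 1 member. In hM4Di IP, 0 members were called with the upper quartile or no filter, 2 with library size alone, and 4 with DESeq2 or all 16 libraries. The difference of the hM4Di effect between fractions gave 1 with DESeq2's size factors in edgeR, 1 with the upper quartile and 4 with DESeq2. Between experiments, MPTP minus SAPAP3 had 0 higher with the upper quartile or library size alone and a median of -0.34 with library size alone, and MPTP minus R6/2 a median of -0.33 with the upper quartile. R6/2 minus SAPAP3 had 1 lower with DESeq2, its size factors, the upper quartile or no filter. These comparisons, and leaving out wild-type replicate 1, were chosen after seeing the data. The cause of these changes was not tested.

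With the replicate number as a block, the condition comparisons called 0 members, including hM4Di IP. Correlations of libraries with the same number in both conditions were -0.437 to -0.0135 in IP and -0.495 to -0.0313 in input in the MPTP experiment, where 0 of 8 libraries of a fraction correlated best with their own number. They were -0.00232 to 0.378 (6 of 8) and -0.103 to 0.504 (4 of 8) in the SAPAP3 experiment, and -0.0393 to 0.136 (5 of 8) and -0.0846 to 0.0583 (2 of 8) in the R6/2 experiment. In none did every pair exceed 0.1, so the numbers were not taken as pairs. With the animal as a block, 5 members were called in the difference of the hM4Di effect and 7 were lower in R6/2 minus SAPAP3, and no other count of called members moved by over 1.5 times.

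Leaving out single replicates gave 0 to 1 called in hM4Di IP, 0 to 1 higher in MPTP minus SAPAP3 and 0 to 5 lower in R6/2 minus SAPAP3. Depth limits the alternative isoforms, Atp5g2 and Atp5l, which had low CPM.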

Other observations

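A few members varied between mice within a group in both fractions, a pattern chosen after its values were seen. Over 66 members with a mean of at least 20 CPM, the median within-group SD of log2 CPM in the R6/2 experiment was 0.0699 in IP and 0.0655 in input. Cox5b, a zinc-binding subunit of complex IV, had an SD of 0.183 in IP and 0.233 in input in the R6/2 experiment. Its values were 60.4, 80.6, 79.9 and 71.9 CPM in hM4Di IP and 59.5, 77.8, 71.1 and 76.3 in control cargo IP, and 61.5, 78.5, 84.1 and 71.7 in hM4Di input and 57.2, 83.2, 71.7 and 85.7 in control cargo input. Replicate 1 was the lowest of each of these 4 groups. Ndufa3, an accessory complex I subunit, had an SD of 0.131 in IP and 0.171 in input, and its highest hM4Di value was that of replicate 4 in both fractions, 59.6 CPM in IP and 63.7 in input.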
